A study of Mus musculus with 36 samples.

Results

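The peaks described here are the open-chromatin regions at the promoters and other ends of the ribosomal protein genes of mouse bone marrow-derived dendritic cells. A gene entered by its name alone, as a protein-coding mouse gene whose symbol is Rpl or Rps followed by a number, with at most a short suffix, and 80 genes of the RefSeq table for GRCm38.p6 carried such a symbol. A peak entered when it lay within 1 kb of either annotated end of such a gene. Its level and its differences between groups were not used, but a region had to be among the deposited peaks. This gave 111 of the 119751 peaks of the deposited count table, at 76 of the 80 genes (31 of the small and 45 of the large ribosomal subunit). Rpl10l, Rpl17, Rpl32l and Rpl39l had no such peak.

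Ribosomal proteins are the protein parts of the small and large subunits of the ribosome, the particle that translates mRNA. Their genes are transcribed in every nucleated cell and are often used as examples of constitutive, housekeeping promoters. Many of these promoters lack a TATA box, carry sites for ETS factors such as GABP, SP/KLF factors or YY1, and start transcription inside a run of pyrimidines, the terminal oligopyrimidine tract that places the mRNA under translational control by mTOR. Dendritic cells that sense microbial ligands through pattern recognition receptors change their cytokine and interferon programmes, and ribosomal protein promoters are a set against which such inducible regions can be read.

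Marrow came from female C57BL/6J mice aged 6 to 8 weeks (the strain label reads C57BL/6), and the cells were grown from it with GM-CSF. They were left without ligand (Ctrl) or exposed for 6 h to a single ligand. The labels call these Zymosan depleted (Z), a yeast cell-wall particle, LPS (L), a bacterial ligand of TLR4, 3',3'-cGAMP (cG), a cyclic dinucleotide sensed by STING, SeV (S), PAM (P) and HMW (H). Ligands were given alone, in 8 pairs (PL, PH, LH, PS, PcG, ScG, ZS and ZcG) or in 3 triplets (PLH, PScG and ZScG). All 18 groups share the strain and the culture, the labels name no genotype or allele, and each group has 2 libraries. The labels do not say whether these came from separate mice or cultures, so p-values measure the spread between the 2 libraries, which may be technical. In a population of cells, fewer cells with an open site and less opening in each cell cannot be told apart.

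Total counts were 19097027 to 39977088 per library, and 8181254 to 21985891 of them lay outside the mitochondrial genome. The mitochondrial share was 57.3% to 63.1% in the 10 libraries of Ctrl, Z, ZcG, ScG and ZScG and 44.1% to 58.1% in the 26 libraries of the other 13 groups. The 58.1% was the first ZS library, within the range of the 10 libraries, and the second ZS library had 51.0%. Because control lies in the first of these sets, the set and the stimulation cannot be told apart for those 13 groups, whereas Z, ZcG, ScG and ZScG against control stay within the set. The 111 peaks took 0.19% to 0.219% of the counts outside the mitochondrial genome in the first set and 0.211% to 0.259% in the other. As a share of the counts at all gene ends they took 0.737% to 0.811% over all 36 libraries. Gene-end peaks were found at 10 of 10 dendritic and myeloid marker loci, among them Itgax, Spi1 and Csf2ra. They also lay at 5 of 15 marker loci of T cells, B cells, neutrophils, erythroid cells and stroma (Cd3d, Cd4, Cd79a, S100a8 and Col1a1). Levels were read as counts scaled to the library size (CPM) per kb of peak. The 10 loci had a median of 10.8, from 5.87 at Flt3 to 21.0 at Csf2ra. The 5 loci had a median of 9.34, from 6.1 at Col1a1 to 12.3 at S100a8. The ranges overlapped, so levels did not separate these loci by cell type. An open gene end is not evidence of expression, and the part of other cells in the results below was not tested.

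RefSeq promoter sequences of GRCm38.p6 were matched by symbol for 61 of the 80 genes. The windows below run from 100 bases before the listed start to the 30th base from it, 5′ to 3′ on the gene's strand. They belong to 4 genes whose peaks were lower after stimulation, 4 whose peaks were higher and 2 among the steadiest. Capitals mark the ETS core CGGAAG, the SP/KLF core GGGCGG, the YY1 core AAGATGG and the TATA box TATAAA on either strand, and a run of at least 5 pyrimidines that reaches within 10 bases of the start. The genes with lower peaks were Rpl15, Rpl22l1, Rpl27a and Rpl36a.
Rpl15, chr14:18270957-18271086, minus strand: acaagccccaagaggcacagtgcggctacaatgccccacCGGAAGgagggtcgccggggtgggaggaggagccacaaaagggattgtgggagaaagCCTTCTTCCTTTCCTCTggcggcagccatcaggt
Rpl22l1, chr3:28805408-28805537, plus strand: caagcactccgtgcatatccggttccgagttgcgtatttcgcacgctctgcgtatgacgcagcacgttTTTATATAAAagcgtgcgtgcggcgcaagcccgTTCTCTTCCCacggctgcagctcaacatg
Rpl27a, chr7:109519095-109519224, plus strand: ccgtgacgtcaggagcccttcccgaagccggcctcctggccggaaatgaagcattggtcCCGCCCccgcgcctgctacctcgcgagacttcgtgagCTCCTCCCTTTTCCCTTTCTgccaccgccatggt
Rpl36a, chrX:134585554-134585683, plus strand: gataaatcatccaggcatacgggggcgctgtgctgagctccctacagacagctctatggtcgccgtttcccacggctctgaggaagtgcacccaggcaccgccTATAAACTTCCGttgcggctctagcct
The genes with higher peaks were Rps18, Rpl6, Rps15 and Rpl7a.
Rps18, chr17:33955636-33955765, minus strand: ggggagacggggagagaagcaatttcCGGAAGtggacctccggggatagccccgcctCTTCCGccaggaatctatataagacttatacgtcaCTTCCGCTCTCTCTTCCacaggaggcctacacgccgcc
Rpl6, chr5:121204401-121204530, plus strand: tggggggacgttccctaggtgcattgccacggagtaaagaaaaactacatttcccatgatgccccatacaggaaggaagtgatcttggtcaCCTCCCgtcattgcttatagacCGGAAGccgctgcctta
Rps15, chr10:80292331-80292460, plus strand: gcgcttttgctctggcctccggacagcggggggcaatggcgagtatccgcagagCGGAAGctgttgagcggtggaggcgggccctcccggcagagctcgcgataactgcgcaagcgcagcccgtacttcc
Rpl7a, chr2:26910707-26910836, plus strand: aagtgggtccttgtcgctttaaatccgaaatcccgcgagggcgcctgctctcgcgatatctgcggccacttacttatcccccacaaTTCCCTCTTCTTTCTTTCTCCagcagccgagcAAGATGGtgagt
The genes with steady peaks were Rpl35 and Rpl27.
Rpl35, chr2:39005102-39005231, minus strand: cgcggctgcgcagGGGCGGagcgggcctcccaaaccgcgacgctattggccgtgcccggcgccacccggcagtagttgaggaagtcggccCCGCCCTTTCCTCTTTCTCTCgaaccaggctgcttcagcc
Rpl27, chr11:101442145-101442274, plus strand: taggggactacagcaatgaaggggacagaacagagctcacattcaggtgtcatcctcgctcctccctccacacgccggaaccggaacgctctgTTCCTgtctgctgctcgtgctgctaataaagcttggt

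The pyrimidine run spanned 17 bases at Rpl15, 20 at Rpl27a, 21 at Rpl7a and 18 at Rpl35, so long runs occurred among the lower, higher and steady genes shown. The Rps18 window held 3 ETS cores, and the Rpl22l1 window held the TATA letters on both strands in an overlapping stretch. Over the full 250 bases before and 50 after the start, the ETS core CGGAAG was present in 40 of the 61 ribosomal protein promoters (65.6%) and in 21.1% of the 17431 promoters of other protein-coding genes in the table. The longer ETS form CCGGAAGT, which contains the shorter one, was present in 11 (18%) against 5.14%. The YY1 core was found in 9 (14.8%) against 6.32%, the SP/KLF core in 34 (55.7%) against 45.8%, and the TATA box in 6 (9.84%) against 13.3%. A pyrimidine run of at least 5 bases covered the start base itself in 18 promoters (29.5%) against 8.47%.

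Motifs of factors that respond to the ligands were also counted. The AP-1 site TGAGTCA was found in 2 of 61 (3.28%) against 4.61% elsewhere, the 10-letter NF-kB site in 0 against 0.132%, and the interferon-stimulated response element core in 7 (11.5%) against 3.4%. A match of letters is a description and not a bound site. The GC content was alike, with a median of 57.0% against 56.3%, whereas the median number of CpG pairs was 21 against 13. The 37 start peaks whose promoter held CGGAAG had a median level of 17.4 CPM (counts scaled to the library size) per kb of peak and a median spread over groups of 0.14 on the log2 scale, and the 17 without it had 18.2 CPM per kb and 0.18. Levels were therefore near each other with and without the motif.

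The ribosomal protein promoters were wide, strongly open peaks. Each gene is represented by its main peak, the peak at its start where a start was listed and otherwise its strongest. Of the 76 main peaks, 54 lay over the RefSeq start, 18 belonged to genes without a listed start, and those of Rpl3l, Rpl18, Rpl19 and Rps2 lay elsewhere. The centres of 53 of the 54 start peaks were within 500 bases of the start, with a median of 80.8 bases downstream. The median main peak was 1300 bp long and had 17.8 CPM per kb, against 9.18 CPM per kb at the 16939 tested peaks of other gene ends and 4.74 CPM per kb over all 119464 tested peaks. In all, 69 of the 76 were above the gene-end median. Main peaks were picked per gene by start or strength, whereas the other gene-end peaks were not picked. The picking itself therefore favours a higher level in the main peaks. The other 35 member peaks, which lay beside the main peak or at the far end of a gene, had a median of 4.11 CPM per kb. Ribosomal protein mRNAs have many processed copies in the genome, and how reads with several matches were counted is not given in the sources used here, so the exonic part of a peak is uncertain. Main peaks collected a median of 306.75 counts per library (median over peaks of the median library), and the other peaks 17, so single libraries say little about the latter.

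**Figure D1:**
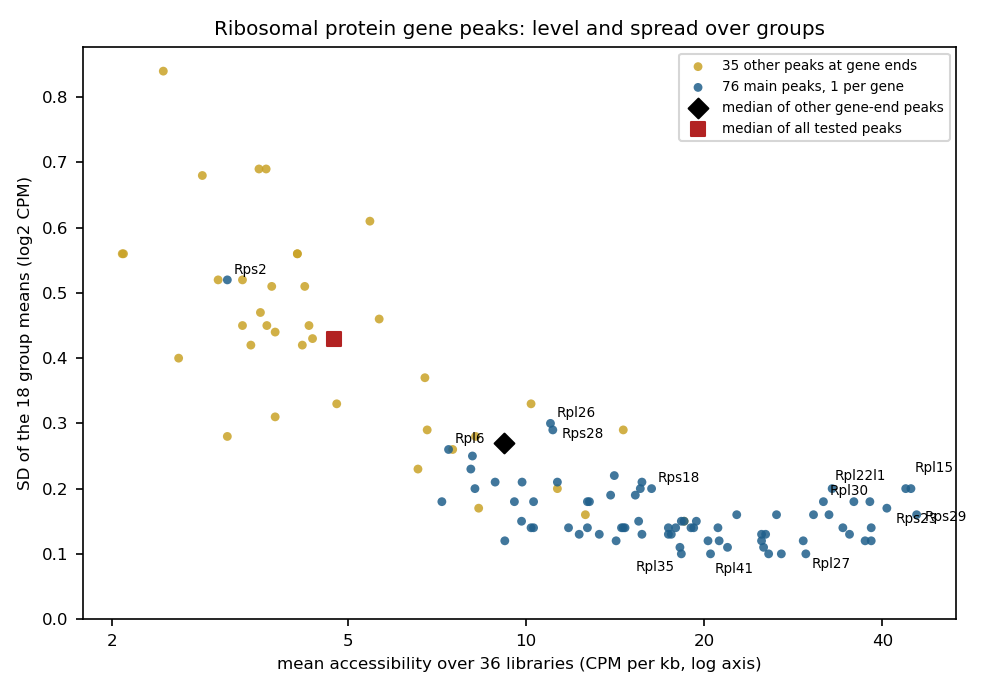
Mean accessibility of each ribosomal protein gene peak over 36 libraries (x axis, CPM per kb, log scale) against the standard deviation of its 18 group means (y axis, log2 CPM), with blue points for main peaks, yellow points for the other member peaks, and the medians of other gene-end peaks (diamond) and of all tested peaks (square). Most main peaks lie to the right of and below both medians. Main peaks were picked per gene by start or strength, and the peaks behind the medians were not. Exceptions are 7 peaks left of the gene-end median, that of Rps2 the lowest, and Rpl26 and Rps28, which lie above the spread of the gene-end median.

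Levels differed widely between genes on the CPM per kb scale, which allows genes to be compared. The highest were Rps29 (45.7 CPM per kb), a small-subunit zinc-finger protein, Rpl15 (44.7), Rpl22l1 (43.8) and Rps23 (40.7), a protein of the decoding centre. Rpl13a (38.3), Rps19 (38.1) and Rps21 (37.4) were also among the highest, and the differences among these last 3 were small beside the spread of their libraries. The lowest main peaks were those of Rps2 (3.13 CPM per kb), Rpl19 (7.21), Rpl6 (7.40) and Rpl8 (8.07). For Rps2 and Rpl19 the low values follow from the 1 kb rule, since the peaks over their starts lay farther from both gene ends and were not members. Those start peaks had 18.5 CPM per kb at Rps2 and 11.7 at Rpl19, and that of Rpl18 had 15.3. At the edge of the rule, the last peaks inside were at Rps2 (940 bp), Rpl22 (950 bp) and Rpl13 (972 bp), and the first outside were at Rps15a (1021 bp), Rpl18 (1026 bp) and Rpl17 (1051 bp, 16.6 CPM per kb).

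The 18 groups differed little at these promoters. The standard deviation of the 18 group means of log2 CPM had a median of 0.15 over the main peaks, against 0.27 over other gene-end peaks and 0.43 over all tested peaks. Weak peaks vary more, so gene-end peaks of like strength are the closer comparison. Between 14.9 and 33.4 CPM, the 38 main peaks had a median of 0.14 and the 3695 other gene-end peaks a median of 0.18. No test was made of this difference, and the other gene-end peaks were not picked 1 per gene. Over the other 35 member peaks the median was 0.44. For 48 of the 76 main peaks the log2 fold change against control stayed under 0.5 in size in all 17 stimulations, and 18 were called in none of them. The 4 steadiest were Rps3a1, Rpl35, Rpl27 and Rpl41, each with a standard deviation of 0.10. Rpl35 ranged from 25.6 to 39.1 CPM (median 31.3) and Rpl27, a protein of the large subunit, from 23.7 to 33.7 CPM (median 29.1) over the 36 libraries, and a difference among groups was not called at either (adjusted p = 0.185 and 0.178).

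Small differences were still measurable at this depth. A test of any difference among the 18 groups called 71 of the 111 peaks (64.0%) at an adjusted p under 0.05, beside 62.5% of all tested peaks, so the members were called about as often as other peaks. Among main peaks 55 of 76 (72.4%) were called, beside 67.8% of the other gene-end peaks. Between 14.9 and 33.4 CPM, 27 of 38 main peaks (71.1%) were called, beside 85.9% of the other gene-end peaks. The lowest adjusted p belonged to Rpl7 (7.23e-20), Rpl15 (3.41e-16) and Rpl22l1 (5.74e-14). Among main peaks with at least 5 CPM the most variable were Rpl26 (standard deviation 0.30), whose protein lies at the exit tunnel, Rps28 (0.29), Rpl6 (0.26), Rpl4 (0.25), Rpl8 (0.23), Rpl7a (0.22), Rps16 (0.21) and Rps9 (0.21). Rpl26 was highest in ZS, with 16.0 and 17.8 CPM, and lowest in PL, with 6.75 and 8.96 CPM, beside 11.8 and 12.2 CPM in control. Rps28 had 11.1 and 8.39 CPM in ZS, 5.59 and 3.99 CPM in PH, and 5.46 and 6.56 CPM in control.

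Each stimulation was then compared with control, first under the usual TMM scaling, which centres the bulk of all peaks. Summed over the 17 comparisons, which share the control libraries, a member was called lower 247 times and higher 104 times out of 1887 (18.6%). The same 17 comparisons gave 249206 lower and 263417 higher calls over the 119464 tested peaks. Without the first control library the higher calls numbered 54. Among single ligands, P lowered 14 members and raised 3 (background over all tested peaks 9.41% lower and 11.1% higher), L lowered 17 and raised 5 (11.1% and 11.3%), and H lowered 10 and raised 2 (5.44% and 5.23%). S lowered 13 and raised 6 (13.8% and 14.1%), cG lowered 9 and raised 6 (11.6% and 11.6%), and Z lowered 1, Rps14, and raised none (1.75% and 4.16%). As shares of the 111 members these run from 0.901% to 15.3% lower and up to 5.41% higher, so higher calls were below the background for each single ligand.

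Pairs without S or cG gave mostly lower calls. PL lowered 24 members and raised 6 (background 13.5% and 13.8%), PH lowered 24 and raised 1 (12.8% and 13.6%), and LH lowered 20 and raised 1 (10.4% and 11.3%). The 21.6% of members lower in PL and in PH stood beside 23.1% and 25.0% of the peaks at other gene ends, so gene ends as a whole moved that way under this scaling. PS lowered 16 and raised 10 (16.2% and 17.3%), and PcG lowered 17 and raised 7 (16.2% and 16.8%). ScG lowered 6 and raised 6 (13.3% and 14.4%), ZS lowered 14 and raised 13 (14.0% and 14.4%), and ZcG lowered 4 and raised 5 (10.3% and 11.4%). Among triplets, PLH lowered 24 and raised 4 (14.7% and 14.9%), PScG lowered 20 and raised 15 (18.1% and 19.0%), and ZScG lowered 14 and raised 14 (16.1% and 16.2%). In the 4 comparisons that stay within the mitochondrial-share set of control (Z, ZcG, ScG and ZScG), lower and higher members were thus close in number under TMM. In ZScG this depended on the scaling, with 10 lower and 17 higher under median-of-ratios factors, 6 and 23 under offsets that follow peak strength, and 5 and 13 called under all 4 scalings described next.

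**Figure D2:**
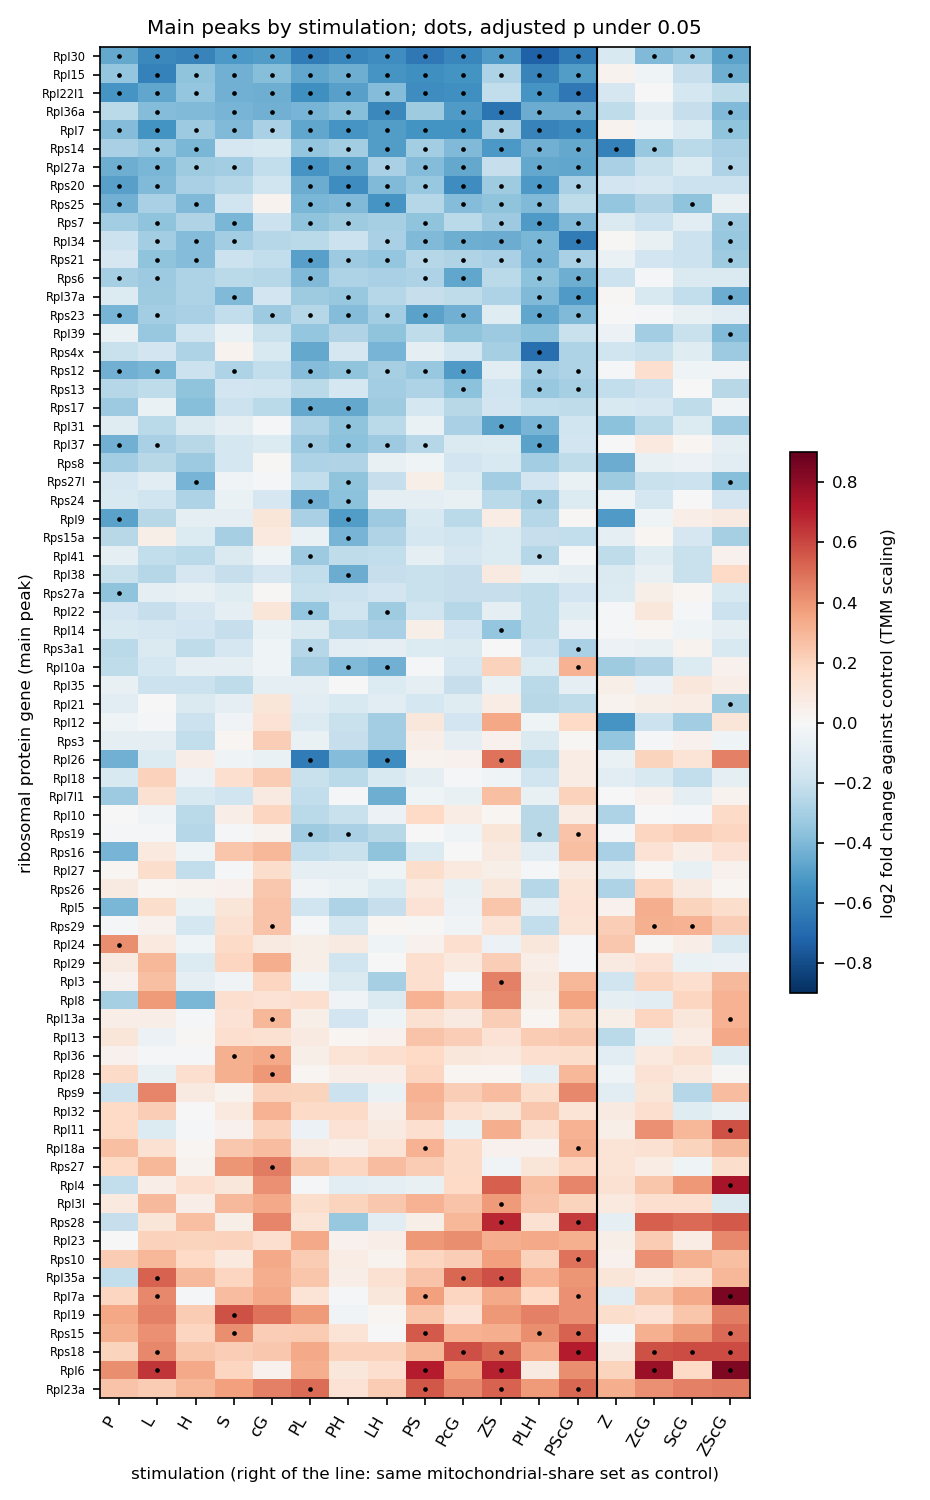
Log2 fold change against control (colour; TMM scaling) of the ribosomal protein main peaks (rows, ordered by their mean; the weak Rps2 peak and 2 others are left out) in each stimulation (columns), with a dot where the adjusted p was under 0.05. Rpl30, Rpl15, Rpl22l1 and Rpl7 are blue in most columns left of the line, and Rps18, Rpl6 and Rpl7a are red in several columns on both sides.

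The balance of lower and higher calls depended on the scaling, so no direction is given for the family. The 247 lower and 104 higher calls under TMM became 221 and 112 with median-of-ratios factors, 140 and 180 with TMM over other gene-end peaks, and 112 and 150 with offsets that follow peak strength. With total counts, where the median of all peaks itself rose by up to 0.45 on the log2 scale, they became 30 and 480. The lower share was 70.4%, 66.4%, 43.8%, 42.7% and 5.88% in that order, and among all tested peaks 48.6%, 46.8%, 39.3%, 46.6% and 23.7%. The results on single genes below are therefore those called in the same direction under TMM, median-of-ratios, gene-end TMM and strength-dependent offsets, unless stated. This held for 102 of the 247 lower and 98 of the 104 higher calls. Gene-end TMM and the offsets gave fewer lower and more higher calls than TMM, so the filter removed mostly lower calls. Numbers of lower and higher calls that passed it therefore do not give a balance of direction. The filter left 18 main peaks with a lower and 24 with a higher call in at least 1 stimulation, the weak Rps2 peak among the latter. Calls under all 4 scalings were not counted over all tested peaks, so these numbers have no background beside them.

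**Figure D3:**
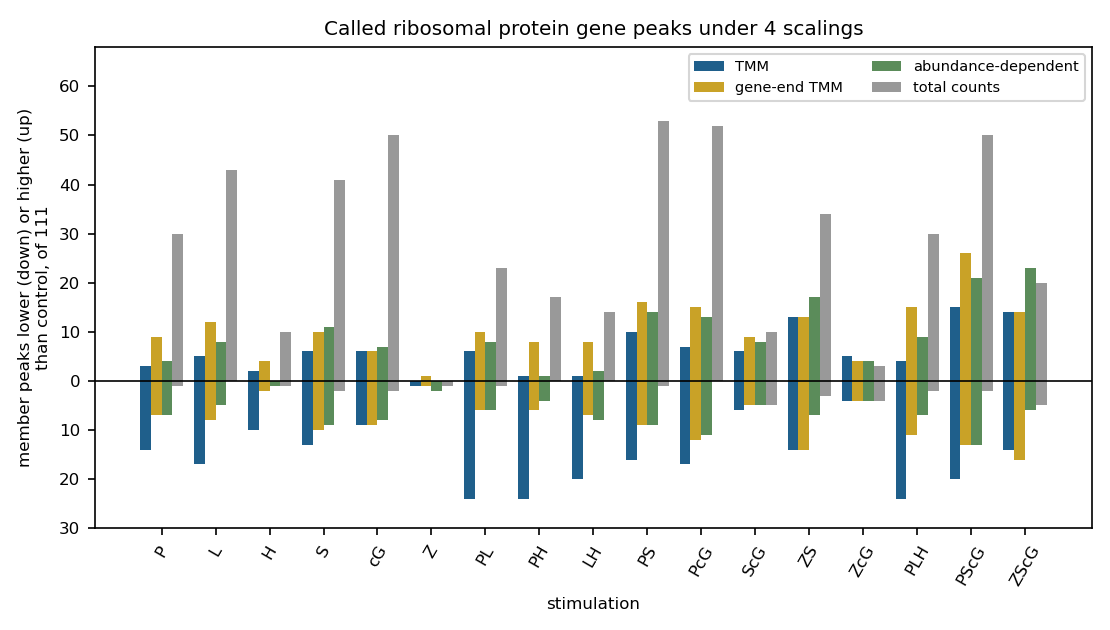
Number of the 111 member peaks called higher (upward bars) or lower (downward bars) than control in each stimulation under TMM (blue), TMM over other gene ends (yellow), strength-dependent offsets (green) and total counts (grey). The blue bars point mostly down for PL, PH, LH and PLH, and the grey bars point mostly up in the 13 stimulations outside the control's mitochondrial-share set.

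The most frequent loss of accessibility was at Rpl30, a large-subunit protein. Its main peak had 70.8 and 65.8 CPM in the control libraries, 60.7 and 63.0 in Z, and 40.2 to 59.0 in the libraries of the other 16 stimulations. No stimulated library reached the control libraries. The peak was called lower in those 16 stimulations under each of the 4 scalings, by 0.73 in PLH (log2 fold change -0.73, SE 0.102, adjusted p = 7.69e-10), while Z gave -0.14 (adjusted p = 0.492). The TMM factors were 0.816 and 0.866 in the control libraries and 1.08 and 1.07 in PLH. They made the PLH fall larger than total counts would, and no total-count value is given for Rpl30. Within the control's mitochondrial-share set the Rpl30 peak fell by 0.40 in ZcG (adjusted p = 0.00202), by 0.35 in ScG (adjusted p = 0.00522) and by 0.48 in ZScG (adjusted p = 8.53e-05). The ScG call was lost without the first control library (-0.30, adjusted p = 0.0782) or the first ScG library (-0.21, adjusted p = 0.253).

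Rpl15, Rpl22l1 and Rpl7 were lower mostly outside that set. Rpl15, a large-subunit protein whose promoter lies beside that of Nkiras1, had 106.0 and 89.3 CPM in control, 92.5 and 106.0 in Z, 101.0 and 88.4 in ZcG, 87.8 and 80.5 in ScG and 71.1 and 72.9 in ZScG, and 59.4 to 86.6 CPM in the 26 libraries of the other 13 groups. Z and ZcG overlapped control, ScG and the 26 libraries lay below it, and ZScG lay within the range of the 26. It was called lower in 9 stimulations under the 4 scalings, with -0.61 in L (SE 0.0936, adjusted p = 3.53e-08) and -0.44 in ZScG (adjusted p = 0.000117). Rpl22l1, a paralog of Rpl22, had 79.8 and 66.5 CPM in control, 59.3 to 79.8 over the 10 libraries of the set and 45.2 to 63.6 in the other 26. It was called lower in 9 stimulations, all outside the set, with -0.64 in PScG (SE 0.101, adjusted p = 3.2e-08). Rpl7, also close to Rdh10, had 131.0 and 118.0 CPM in control, 92.4 to 131.0 in the set and 81.2 to 106.0 outside it. It was called lower in 7 stimulations, with -0.60 in PLH (SE 0.0875, adjusted p = 3.01e-09) and -0.36 in ZScG (adjusted p = 0.000517). The medians of these 3 peaks were higher over the 10 libraries of the high mitochondrial share than over the 26 others (88.8 against 70.6 CPM at Rpl15, 66.5 against 53.3 at Rpl22l1 and 117.0 against 88.3 at Rpl7), with ZScG as an exception at Rpl15 and Rpl7. The highest values of the 26 at Rpl15 (86.6 CPM) and Rpl22l1 (63.6 CPM) were those of the first ZS library, whose share was 58.1%. The part of the share was not tested. With total counts the Rpl15 value in L was -0.18 and no longer called.

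Other promoters fell in fewer stimulations. Rpl27a was lower in 6, with 46.4 and 41.1 CPM in PL against 64.1 and 62.7 in control (log2 fold change -0.53, adjusted p = 1.05e-05). Rpl36a was lower in 5, with 16.8 and 18.2 CPM in ZS against 29.9 and 25.4 (log2 fold change -0.66, adjusted p = 0.000341). Rpl34 was lower in 4, with 37.6 and 38.6 CPM in PScG against 59.6 and 58.1 (log2 fold change -0.63, adjusted p = 3.13e-07). The groups did not overlap control in any of these 3 comparisons. Rps14, a small-subunit protein whose reduced dose underlies a human myelodysplastic anaemia, was the 1 member lowered by Z. Its libraries had 23.2 and 23.9 CPM against 36.4 and 35.6 in control (log2 fold change -0.61, adjusted p = 0.000405). It was also lower in LH, ZS, ZcG and PScG. Rps20 was lower in 4 stimulations, with -0.56 in PcG (adjusted p = 4.65e-05). Rpl37a was lower in S, PScG and ZScG, with -0.51 in PScG (adjusted p = 0.000699). Rps4x passed in PLH, at 8.8 and 6.2 CPM against 14.0 and 10.3 in control (log2 fold change -0.68, adjusted p = 0.00571), and lost the call without the first control library (-0.45, adjusted p = 0.203) or the second PLH library (-0.46, adjusted p = 0.179). With total counts the calls of Rpl27a in PL (-0.21), Rpl34 in PScG (-0.26), Rps20 in PcG (-0.14), Rpl37a in PScG (-0.15) and Rps4x in PLH (-0.33) were lost, whereas those of Rpl36a in ZS and Rps14 in Z were kept.

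**Figure D4:**
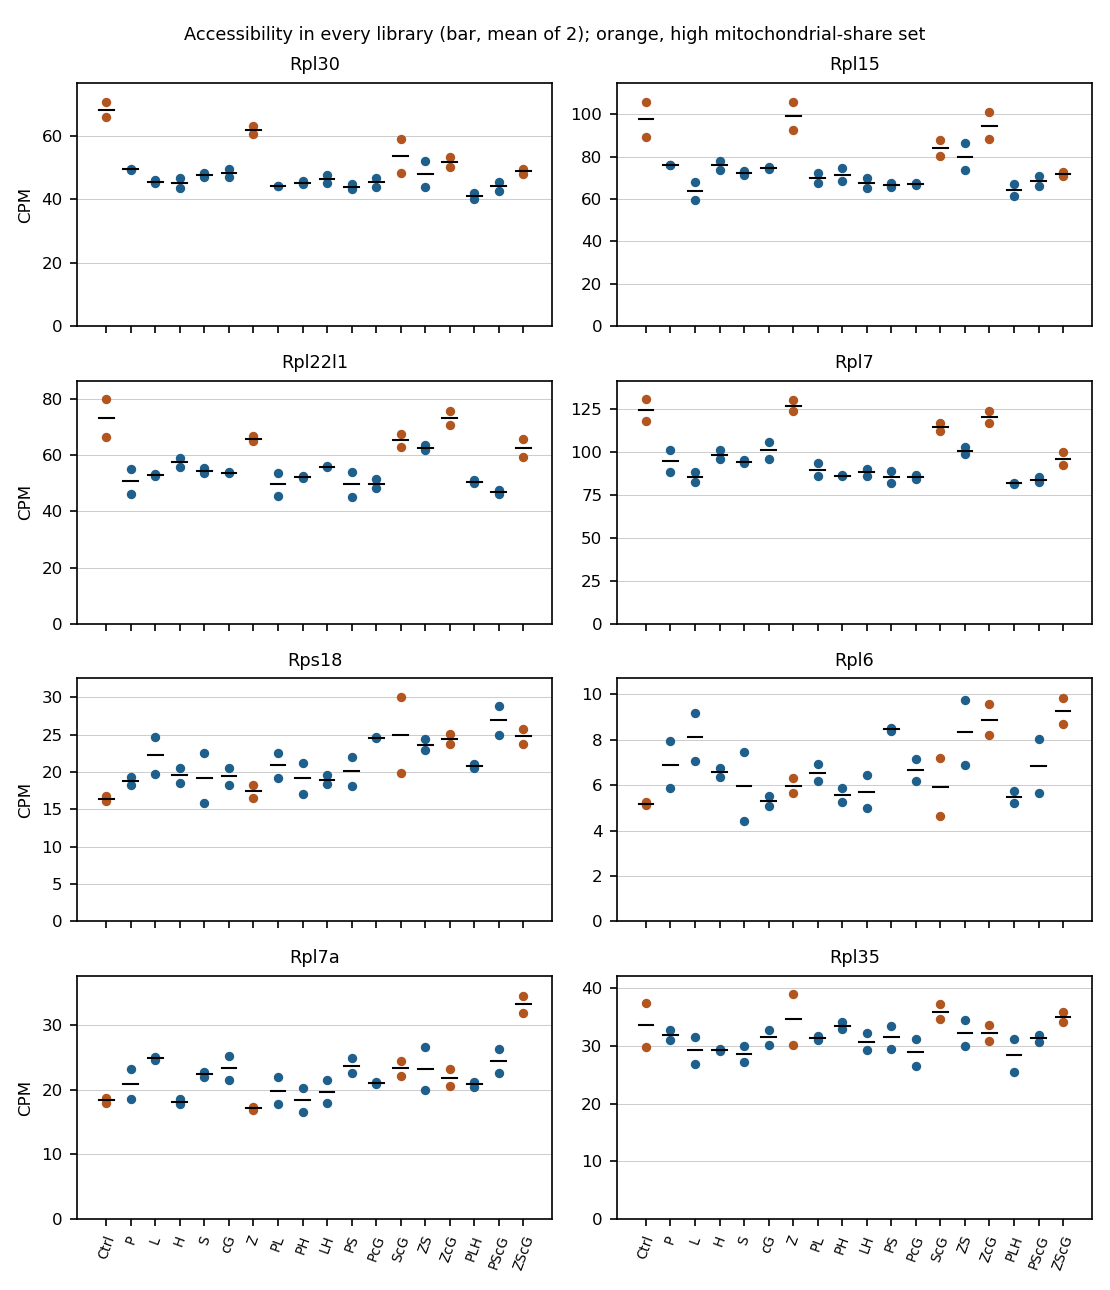
CPM of 8 main peaks in each library (points) with the mean of the 2 libraries (bars), for the 18 groups on the x axis; orange marks the 5 groups with the high mitochondrial share. Rpl30 is highest in Ctrl and Z, Rpl15, Rpl22l1 and Rpl7 are highest in orange groups, Rps18, Rpl6 and Rpl7a are above control in several groups of both colours, and Rpl35 is level.

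Gains of accessibility were led by Rps18, a protein at the head of the small subunit whose peak also lies near an end of Vps52. Its main peak had 16.8 and 16.1 CPM in control, 25.0 and 28.9 in PScG, 19.9 and 30.0 in ScG, 25.1 and 23.7 in ZcG, and 23.8 and 25.8 in ZScG. All of these libraries were above both control libraries. It was called higher in 7 stimulations under the 4 scalings (L, PcG, ScG, ZS, ZcG, PScG and ZScG), 6 of which contain S or cG. The log2 fold change was 0.71 in PScG (SE 0.147, adjusted p = 2.49e-05), 0.59 in ScG (adjusted p = 0.00115), 0.57 in ZcG (adjusted p = 0.00294) and 0.59 in ZScG (adjusted p = 0.00132). The last 3 lie within the control's mitochondrial-share set, and the ScG call was lost without the second ScG library (0.27, adjusted p = 0.305). S alone gave 22.5 and 15.9 CPM and cG alone 20.6 and 18.3, and neither was called.

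Other gains were found in ZScG, ZcG or ScG, which lie within that set, and some of these peaks also gained outside it. Under the 4 scalings Rpl7a was called higher in L, PS and PScG too, Rpl6 in L, PS and ZS, and Rps29 in cG. Rpl7a, a large-subunit protein whose promoter neighbours Med22, had 31.8 and 34.5 CPM in ZScG against 18 and 18.7 in control (log2 fold change 0.85, SE 0.144, adjusted p = 3.73e-07), and the other 34 libraries had 16.5 to 26.5 CPM. Rpl6 had 9.83 and 8.69 CPM against 5.24 and 5.11 (log2 fold change 0.84, SE 0.261, adjusted p = 0.00729), and 8.2 and 9.57 in ZcG (0.78, adjusted p = 0.0191). Rpl4, which neighbours Zwilch, rose by 0.74 (adjusted p = 0.00576), and Rpl11, which with Rpl5 binds Mdm2, rose by 0.57 (adjusted p = 0.0062). Rps29, the most open main peak per length, rose by 0.31 in ScG (adjusted p = 0.00846) and by 0.32 in ZcG (adjusted p = 0.0095). The Rpl7a call in ZScG held without each of its 4 libraries in turn. Without the first control library those of Rpl11 (0.42, adjusted p = 0.139), Rpl6 in ZcG (0.80, adjusted p = 0.0787) and Rps29 in ScG (0.29, adjusted p = 0.076) and ZcG (0.29, adjusted p = 0.083) were lost. Those of Rpl6 in ZScG (0.75, adjusted p = 0.0803) and Rpl4 (0.57, adjusted p = 0.107) were lost without the first and the second ZScG library, respectively. Rpl6 in ZcG was lost as well without the second control (0.76) or second ZcG library (0.66), and Rps29 without the second ScG (0.26) or first ZcG library (0.25).

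Rps15, which with Rps18 sits at the head of the small subunit, was higher in S, PS, PLH and PScG, which lie outside the set, and in ZScG. It had 16.0 and 20.8 CPM in PS against 12.8 and 12.5 in control (log2 fold change 0.55, adjusted p = 0.00423), and in PLH the gain of 0.42 (adjusted p = 0.0449) was lost without either control library (0.43 and 0.40) or the first PLH library (0.30). The PS gain was lost without the second PS library (0.35, adjusted p = 0.196). Rpl23a, a protein at the exit tunnel, was higher in PL, PS, ZS and PScG, with 0.56 in PS (adjusted p = 0.0144). Rps28 rose by 0.68 in ZS (adjusted p = 0.0268). Rpl26 rose by 0.49 in ZS (adjusted p = 0.0337), and its value of -0.63 in PL (adjusted p = 0.0094 under TMM) did not pass under all 4 scalings. Without the first control library the gains of Rpl23a in PS (0.48, adjusted p = 0.13), Rps28 in ZS (0.56, adjusted p = 0.191) and Rpl26 in ZS (0.47, adjusted p = 0.144) were lost. They were lost too without the first PS library for Rpl23a (0.51), the first ZS library for Rps28 (0.48), and the second control (0.52) or second ZS library (0.41) for Rpl26. Both directions occurred in both subunits. The main peaks of the 31 small-subunit genes had 19 lower and 24 higher calls under the 4 scalings. Those of the 45 large-subunit genes had 60 and 31. Of the 60, Rpl30 gave 16, Rpl15 and Rpl22l1 9 each, and Rpl7 7. Of the 24 higher small-subunit calls, 4 belong to the weak Rps2 peak, which does not lie over the Rps2 start. Under TMM alone the small-subunit genes had 102 lower and 25 higher calls, and the large-subunit genes 118 and 31. No background over all tested peaks was counted, and the subunits were not tested against each other.

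Several ribosomal proteins have roles outside the ribosome. The standard deviation over groups was 0.11 to 0.14 at Rps27a, Rpl13a, Rps6, Rpl22 and Rps3, and 0.18 to 0.20 at Rpl11, Rps19, Rpl3 and Rpl5, around the main-peak median of 0.15. Rpl11 is described above. Rpl13a, which joins an interferon-gamma-activated complex that inhibits translation, had 0.31 in ZScG (adjusted p = 0.0215) and 0.30 in cG, and was not called in the other 15 stimulations. Rps6, the target of S6 kinase, fell by 0.47 in PcG (adjusted p = 0.000375) and was also lower in PScG under the 4 scalings. Rps3, also a DNA repair and NF-kB partner protein, was called in none, with fold changes from -0.35 to 0.22. Rpl5 was called in none, with -0.41 to 0.33. Rps19, the gene most often mutated in Diamond-Blackfan anaemia, rose by 0.26 in PScG (adjusted p = 0.0325), and its TMM calls in PL, PH and PLH (-0.32, -0.29 and -0.25) did not pass under the 4 scalings. Rpl3, a protein of the peptidyl transferase centre, rose by 0.45 in ZS (adjusted p = 0.0234). Rps27a, which encodes a fusion with ubiquitin, and Rpl22 had calls under TMM (-0.36 in P for the first, -0.35 in PL and -0.32 in LH for the second) that did not pass under the 4 scalings. Without the first control library the calls of Rpl13a in ZScG (0.19, adjusted p = 0.317), Rps19 in PScG (0.25, adjusted p = 0.125) and Rpl3 in ZS (0.39, adjusted p = 0.155) were lost. Other single libraries ended them too: the second ZScG library for Rpl13a (0.22), the first ZS library for Rpl3 (0.25), and the second control (0.26) or either PScG library (0.29 and 0.22) for Rps19. The Rps6 value in PcG was -0.04 with total counts.

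The duplicated and tissue-restricted copies were mixed. Rpl22l1 was among the most open promoters (43.8 CPM per kb), above its paralog Rpl22 (35.2). Rps27l (19.0 CPM per kb) and Rpl7l1 (9.56) were open in all libraries, at 18.4 to 28.3 CPM and 7.3 to 14.8 CPM. The peak taken for Rpl3l, a copy of heart and skeletal muscle, had 16.4 to 26.7 CPM, but it lay away from the Rpl3l start and is also close to the end of Msrb1. Rpl10l and Rpl39l, copies of the testis, had no member peak. Rps27l had TMM calls of -0.42 in H (adjusted p = 0.0246), -0.36 in PH and -0.38 in ZScG (adjusted p = 0.0277), none of which passed under the 4 scalings.

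Small peaks beside the promoters changed most, on few counts. A peak of 234 bp near Rps2 had 3 and 0 counts in control against 15 and 4 in ZScG (adjusted p = 0.0137), and a peak downstream of the Rpl13 start had 2 and 0 in control against 8 and 14 in PLH (adjusted p = 0.0262), 8 and 14 in PScG (adjusted p = 0.0136) and 15 and 12 in ZScG (adjusted p = 0.000609). One near Rpl18, also close to Fam83e, had 3 and 0 in control against 16 and 10 in PScG and 23 and 10 in ZScG (adjusted p = 0.000939). Another near Rpl23 had 0 and 4 against 14 and 20 in PScG (adjusted p = 0.0136). No fold is given at such counts. Without the second control library the calls near Rps2 (adjusted p = 0.209), Rpl13 in PLH (0.275) and PScG (0.196) and Rpl18 in ZScG (0.0564) were lost, and without the first that near Rpl23 (0.202). Leaving out the stimulated library with more counts also ended those near Rps2 (0.334), Rpl13 in PLH (0.187) and PScG (0.0799), and Rpl23 (0.0551). Of those with more counts, a peak beside Rpl12 had 8 and 13 in control against 56 and 50 in S (adjusted p = 0.0023).

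Lower side peaks were found at Rps27a, Rps15a and Rps29. The Rps27a side peak had 43 and 59 counts in control, 9 and 11 in ScG, 24 and 35 in PScG and 18 and 5 in ZScG, with log2 fold changes of -2.36 (adjusted p = 3.44e-06), -1.16 (adjusted p = 0.00787) and -1.89 (adjusted p = 0.000156). It was called lower in 9 stimulations under the 4 scalings, each with S or cG, while the Rps27a main peak was called in none under the 4 scalings. This side peak also lies near an end of Mtif2. The PScG call was lost without the second control library (-1.01, adjusted p = 0.0760) or the first PScG library (-1.06, adjusted p = 0.0645). The Rps15a side peak had 16 and 30 counts in control and 13 and 10 in PScG (-1.33, adjusted p = 0.028), and that of Rps29 had 15 and 30 against 2 and 11 in ZScG (-1.46, adjusted p = 0.0453). Both calls were lost without the second control library, at -0.91 and -0.99, and without the second PScG (-1.0) and the first ZScG library (-0.59), respectively.

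Adding a ligand to another changed few members. A pair was compared with a single ligand in 12 comparisons whose groups lie in 1 mitochondrial-share set. Members were called 16 times lower and 12 times higher of 1332 (2.1%), beside 6.68% over all tested peaks. Without the first P library 18 calls were made. Among the 12 is ZS against S, where the first ZS library had a share of 58.1%, against 47.1% and 48.7% in S. That comparison therefore crosses the sets in part. Adding cG to P raised Rpl35a by 0.74 (adjusted p = 0.00115) and Rps18 by 0.38 (adjusted p = 0.0432). Adding S to P raised Rpl5 by 0.54 (adjusted p = 0.00389). Adding cG to Z raised Rps18 by 0.48 (adjusted p = 0.0292), from 16.5 and 18.3 CPM in Z to 25.1 and 23.7. Of these, the Rps18 differences did not pass under all 4 scalings, and each was lost without any 1 of its libraries (0.34 to 0.56). The Rpl5 difference was lost without the second P or the second PS library (0.47 each).

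Interactions ask whether a pair differs from the sum of its single ligands on the log2 scale. Over 8 pairs, members were called 31 times of 888 (3.49%; 15 times without the first control library), beside 5.18% over all tested peaks, and 18 of these were in ScG, where 14.4% of all tested peaks were called. PL and LH had 5 each, ZS, ZcG and PS 1 each, and PH and PcG none, with 19 and 18 members at an unadjusted p under 0.05. The ScG contrast sets 2 groups of the high mitochondrial share (ScG and control) against 2 of the low share (S and cG). In the other pairs except ZS, and in the 3 triplets, the 2 sets also enter without balance. The share and the interaction cannot be told apart in any of these terms. The groups of the ZS term balance, but the first ZS library had a share of 58.1%, within the range of the high set. Positive values in ScG at Rpl22l1 (0.70, adjusted p = 5.66e-05), Rpl30 (0.67), Rpl15 (0.60) and Rpl7 (0.57) went with low levels in S and in cG and levels nearer to control in ScG. At Rpl15 the means of 2 libraries were 72.3 CPM in S, 74.8 in cG, 84.1 in ScG and 97.5 in control. Outside ScG, Rpl30 had 0.63 in LH (adjusted p = 0.002), Rpl22l1 0.59 in ZcG (adjusted p = 0.00619), Rpl24 -0.55 in PS (adjusted p = 0.0334) and Rpl10a 0.61 in ZS (adjusted p = 0.0446). The ZcG value was lost without the first control library (0.46, adjusted p = 0.127). That of Rpl24 was lost without the second control (-0.47), first P (-0.49), first S (-0.42) or second PS library (-0.46), and that of Rpl10a without either control (0.55 and 0.67), either S (0.54 and 0.68), the first Z (0.43) or the second ZS library (0.41). With total counts the ScG values were 0.07 at Rpl22l1, 0.03 at Rpl30, -0.03 at Rpl15 and -0.06 at Rpl7, none of them called.

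Triplets departed from their pairs and singles at few members. Over the 3 triplets, 6 of 333 tests were called (1.8%), beside 1.56% over all tested peaks, and none was called in PLH, where 20 members had an unadjusted p under 0.05. The 6 calls became 3 without the first control, PS or S library or the second cG library. Rpl22l1 had -0.86 in ZScG (SE 0.202, adjusted p = 0.00613) and -0.76 in PScG (SE 0.199, adjusted p = 0.0174). A side peak of Rps9 had 1.39 in ZScG (adjusted p = 0.00754) and 1.11 in PScG (adjusted p = 0.0257). It had 9.95 and 11.6 CPM in ScG and 10.5 and 10.3 in ZS, and 12 and 13 in ZScG, the 3 lowest groups, against 17.7 and 14.6 in control and 18.9 and 18.2 in PScG. Rpl15 had -0.68 in ZScG (adjusted p = 0.03), and a Rps15a side peak -3.53 in PScG (adjusted p = 0.0435) on 4 to 50 counts per library. Without the first control library the Rpl22l1 calls were lost in ZScG (-0.72, adjusted p = 0.0545) and PScG (-0.62, adjusted p = 0.115), as was that of Rpl15 (-0.56, adjusted p = 0.15). The Rps9 call in PScG was lost without the second control library (0.97, adjusted p = 0.0906), as was that of Rps15a (-3.11, adjusted p = 0.124). Single stimulated libraries ended these calls too: P 2, PS 1, PcG 1 or ScG 1 for Rpl22l1 in PScG (-0.71 to -0.63), PS 1, PScG 1, PcG 1, S 1, ScG 1 or cG 2 for Rps9 in PScG (1.0 to 1.08), and S 1, ScG 1, Z 1, ZS 1, ZScG 1, ZcG 1 or cG 2 for Rpl15 in ZScG (-0.67 to -0.56). For Rps15a they were both P, both PS, both cG, PScG 2, PcG 2, S 1 and ScG 2 (-3.70 to -3.01). The Rps9 value in ZScG held without each library.

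Comparing a triplet with each of its pairs gave 17 calls of 999 (1.7%), beside 1.11% over all tested peaks, and 11 of them compared PScG with ScG, which lie in different mitochondrial-share sets. Without 1 of the PScG or ScG libraries, the total was 9 to 11 calls. There Rpl22l1 was lower by 0.48 (log2 difference -0.48, adjusted p = 0.000585) and the Rps9 main peak higher by 0.68 (adjusted p = 0.0269). Within 1 set, Rpl7a was higher in ZScG than in ZcG by 0.60 (adjusted p = 0.00641) and than in ScG by 0.51 (adjusted p = 0.0471). The first was lost without the second ZScG (0.54, adjusted p = 0.0833) or the first ZcG library (0.52, adjusted p = 0.135), and the second without any 1 of its 4 libraries (0.44 to 0.58). The Rps9 difference was likewise lost without any 1 of its 4 libraries (0.56 to 0.84). The ligand added to a pair in PLH changed 1 member, a side peak of Rpl3 that was higher than in LH (adjusted p = 0.0269).

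Genes of the same process differed among the groups at shares around that of the members (64.0%), but the directions varied between lists. Of the 9 gene-end peaks of ribosomal proteins outside the naming rule (such as Rplp0, Rpsa and Rack1), 5 differed among the 18 groups (55.6%). The share was 35 of 48 (72.9%) for translation factors, 30 of 48 (62.5%) for ribosome assembly factors and 67 of 104 (64.4%) for mitochondrial ribosomal proteins, beside 62.5% of all tested peaks. In ZScG against control, translation factors had 2 lower and 13 higher of 48, and assembly factors 6 and 8 of 48. Mitochondrial ribosomal proteins had 19 and 19 of 104, and the ribosomal proteins outside the rule 2 and 1 of 9. The members had 14 and 14 of 111, beside 16.1% lower and 16.2% higher over all tested peaks. In PLH the lists had, in that order, 9 and 2, 7 and 2, 26 and 7, and 3 and 1. The members had 24 and 4 there, beside 14.7% and 14.9%. The median log2 fold change in PLH was -0.08 over the ribosomal protein members, -0.14 over other gene ends and 0.04 over all tested peaks.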

How the data were processed

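ATAC-seq cuts open chromatin with the Tn5 transposase, and 36 libraries of 50000 cells each were used. The authors deposited 1 table of raw read counts per peak and library with peak positions on mm10. Per the submitters' processing notes, Bowtie2 2.2.9, MACS2 (version given as 1.4), bedtools and featureCounts were used; their roles and settings, duplicate removal, read-end shifting and whether peaks were called on pooled libraries are not given in the sources used here. Each column was matched to its sample by name, and no column was left unused.

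The mitochondrial peak was left out of library sizes. Peaks passing filterByExpr (minimum count 10) were fitted in 1 edgeR 4.0.16 quasi-likelihood model over all 18 groups with TMM factors (limma 3.58.1, R 4.3.3), and p-values were adjusted by Benjamini-Hochberg over the 119464 tested peaks within each contrast and called at 0.05. All 111 members passed the filter. CPM are counts divided by the TMM-scaled library size, and log2 CPM used a prior count of 2. The other 3 scalings entered the same model. DESeq2 1.42.0, thinning to 8181254 counts, no filter, the mitochondrial peak kept, a replicate term and leaving out each library were alternatives. Counts limit precision at side peaks. Tables and figures were made with Python 3.11.15, pandas 2.3.3 and matplotlib 3.10.9. In simulated counts the model recovered 46% of 2-fold changes between P and control, with 1 false call. Few peaks were changed in that simulation, whereas many are called in the data. It therefore does not give the power for the small changes described here.

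Genes were named by rule: the 8 highest and 4 lowest levels, the 8 most and 4 least variable main peaks of at least 5 CPM, the 4 highest and lowest called fold changes of each triplet, listed genes with roles outside the ribosome, duplicated copies, and the 5 strongest interactions where more than 10 were called. Genes called under all 4 scalings in several stimulations, and those in comparisons of pairs and triplets, were chosen after their values were seen. The members and lists were chosen with earlier results of these data known. Values of 2 genes that the rule names are not reported here.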

Additional observations from a re-analysis of the deposited data

Results flagged for a closer look

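Interaction terms, which test whether a combination differs from the sum of its parts, were called for some ribosomal protein peaks in 8 of the 11 combinations. The number of members was 5 in PL, 5 in LH, 1 in PS, 18 in ScG, 1 in ZS, 1 in ZcG, 3 in PScG and 3 in ZScG. Over all pairs 3.49% of the member tests were called, beside 5.18% over all tested peaks. Over the 3 triplets these shares were 1.8% and 1.56%. In ScG alone 14.4% of all tested peaks were called. The share over all tested peaks is not given for the other single combinations. In ScG, the log2 interaction was 0.70 at Rpl22l1, 0.67 at Rpl30, 0.60 at Rpl15, 0.57 at Rpl7 and 3.96 at a side peak of Rps15a. That side peak had 4 and 8 counts in S, 8 and 7 in cG, 11 and 18 in ScG and 16 and 30 in control. In ZScG, the value was -0.86 at Rpl22l1, 1.39 at a side peak of Rps9 and -0.68 at Rpl15. In PScG, it was -0.76 at Rpl22l1, 1.11 at the same Rps9 side peak and -3.53 at the Rps15a side peak. The groups of high and of low mitochondrial share enter these terms, except ZS, without balance. The share and the ligands cannot be told apart in them. In ZS the groups balance, but the first ZS library had a share of 58.1%, within the range of the high set.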

How the results depend on the processing

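Scaling moved the counts most. Calls lower than control, 247 with TMM, numbered 140 with TMM over other gene-end peaks, 112 with strength-dependent offsets and 30 with total counts; calls higher, 104, numbered 180 with gene-end TMM and 480 with total counts. With total counts there were also 130 pair interactions (31), 33 triplet interactions (6) and 27 differences between a triplet and its pairs (17; 11 with strength-dependent offsets). Thinning to 1 depth gave 17 changes on adding a ligand (28), 19 pair interactions and 3 triplet interactions, and DESeq2 gave 10 triplet interactions. Leaving out each library in turn gave 65 to 74 peaks that differ among groups (71), 166 to 247 lower calls, 54 to 106 higher calls, 18 to 29 changes on adding a ligand, 15 to 35 pair interactions, 3 to 7 triplet interactions and 9 to 17 differences between a triplet and its pairs. For these refits the dispersion trend of the full fit was kept, and the lone library of a group is assumed to vary like the others. The values that turned direction, with total counts, were the ScG interactions of Rpl7 (-0.06) and Rpl15 (-0.03), and Rps19 in PL (0.00). Of the values recomputed for 88 named contrasts, 1026 kept direction and call and 223 kept the direction only. Apart from what the settings change by construction, the cause was not tested. Low counts limit the side peaks. The 1 kb rule gave 74 peaks at 71 genes when restricted to overlap with a gene end and 153 at 77 genes at 2 kb.

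Replicate numbers in the titles did not pair the libraries: deviations of same-numbered libraries correlated by -0.04 to 0.03 over 153 pairs of groups. With the number as a replicate block the counts were 71 peaks that differ among groups, 249 lower and 104 higher calls, 28 changes on adding a ligand, 31 pair and 6 triplet interactions, and 16 differences between a triplet and its pairs.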
